A study of Oreochromis niloticus with 12 samples.

Results

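The pituitaries of dominant and subordinate males of the Lake Manzala strain of Nile tilapia (Oreochromis niloticus) were compared over the 714 genes of the deposited pituitary table. All of its genes were kept, and 6 of the 12 libraries of the study, 3 from dominant and 3 from subordinate males, are pituitary libraries. The other 6 libraries are brains of males of the same 2 ranks and are used below only as a second tissue. Mature males lived 2 to a tank with 4 to 6 females at 26–28 °C, were told apart by a dye mark, and were scored for rank over 14 days, after which tissue was taken from males whose rank had been stable. The series describes dominant males as reproducing and subordinate males as not reproducing, and no male received a drug or carried a transgene. Nothing in the labels tells whether different replicates are from different tanks, or whether a sample held 1 or several glands, so p-values measure only the spread between these samples.

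The pituitary of a teleost fish sits under the hypothalamus, which sends nerve fibres directly into the gland. Its gonadotrophs make the gonadotropins LH and FSH, each of which joins a shared alpha subunit (cga) to its own beta subunit (lhb or fshb), and these drive the testis. Its somatotrophs make growth hormone (gh1), and in cichlids social rank is known to go with differences in reproductive state and growth.

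All 714 genes carry a p-value below 0.05 for this comparison in the authors' deposited table, the highest being 0.0499. The genes were therefore selected on the very difference described here, and their directions, sizes and counts are descriptions of a selection. Values are normalised read counts, that is, gene counts divided by 1 size factor per library (0.801 to 1.52), and every difference is that of log2(value + 1) in dominants minus that in subordinates, given with its standard error (SE). Of the 714 genes, 372 were higher (52.1%) and 342 lower (47.9%) in dominant males, with a median absolute difference of 0.66. The 3 dominant values and the 3 subordinate values did not overlap for 471 genes (66%), 275 of them higher (38.5%) and 196 lower (27.5%). Differences over 1 on the log2 scale were found in 102 higher and 48 lower genes, and differences over 2 in 29 higher and 7 lower genes.

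Each library held 1649554 to 7025630 reads in these genes, which is not its full depth. gh1 alone took 49.6%, 58.7% and 55.6% of them in dominants 1, 2 and 3 and 61.8%, 77.8% and 84.2% in subordinates 1, 2 and 3. Subordinates 1 and 3 stood farthest from their group means (SD of the log2 deviations over genes 0.66 and 0.58, against 0.40 to 0.48 in the other 4 libraries). Of the 10 pituitary cell markers looked for, gh1, cga, lhb and fshb are in the table. Genes outside the selection, among them prl and pomc, were not analysed here in the pituitary.

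With limma and Benjamini-Hochberg adjustment over the 714 genes, 6 genes (0.84%) passed an adjusted p of 0.05, and all 6 were higher in dominant males. At an unadjusted p under 0.05 there were 404. The 6 were igfbp5, lnpk, cdc42ep1b and the unnamed LOC100701774, LOC100703972 and LOC100703705. No gene passed when the adjustment counted the 27115 genes of the brain table instead, which is nearer to the number from which the authors selected. No gene passed without dominant replicate 3, and 255 passed (115 higher, 140 lower) without subordinate replicate 1. At an adjusted p under 0.1 there were 607. The 714 genes were selected on this same comparison, so these adjusted p do not give the share of false calls. Verbs of change are kept for the 6 only to mark them, and do not show a change beyond these libraries. One library could move a difference strongly. Of 220 genes followed through the left-out fits, 68 moved by over 1.5 times when a single library was left out, 42 of them without subordinate replicate 3 and 23 without subordinate replicate 1.

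**Figure D1:**
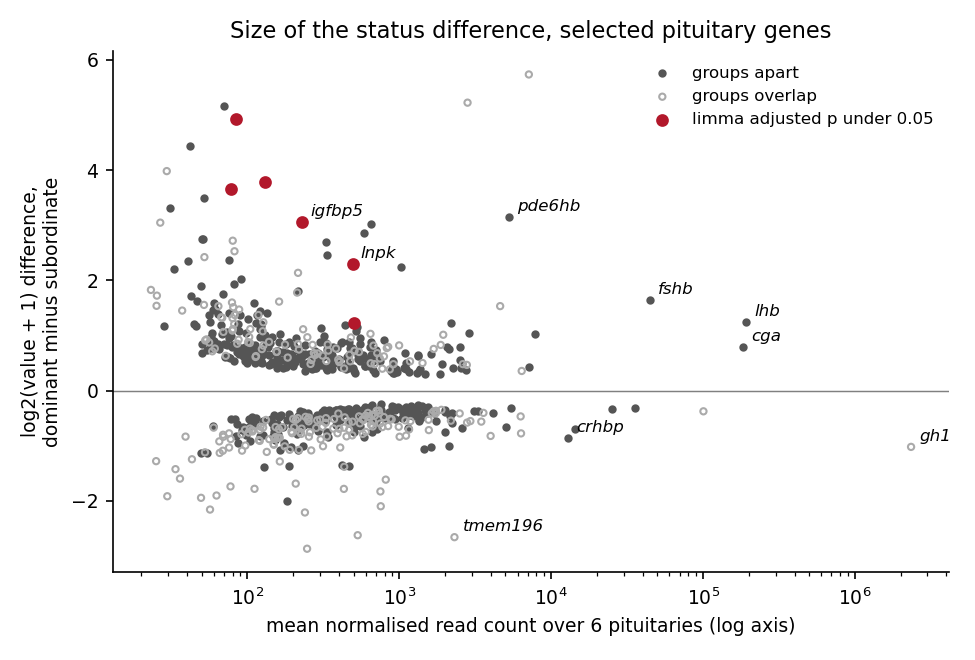
Each point is 1 of the 714 genes, with its mean normalised read count over the 6 pituitaries on a log axis and its log2(value + 1) difference, dominant minus subordinate. Filled points are genes whose groups do not overlap and red points the 6 with a limma adjusted p under 0.05. The empty band around 0 comes from the selection of the table by p.

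Among the hormones, the gonadotropin subunits were higher and growth hormone was lower in dominant males. The beta subunit of FSH, fshb, stood at 56643, 89685 and 52270 in dominants 1, 2 and 3 and at 33451, 22564 and 11662 in subordinates 1, 2 and 3. Every dominant library lay above every subordinate one, and the difference was 1.64 ± 0.42 (SE, limma adjusted p = 0.0855). The beta subunit of LH, lhb, stood at 229270, 305773 and 257273 against 66754, 110224 and 185662, again without overlap, a difference of 1.24 ± 0.40 (limma adjusted p = 0.0855). The shared subunit cga stood at 205698, 317202 and 175794 against 123787, 104056 and 173241. Its groups were only just apart, dominant 3 lying close above subordinate 3, and the difference was 0.79 ± 0.33.

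Growth hormone, gh1, stood at 1031202, 1855575 and 1323370 in dominants and at 1252854, 3063158 and 5513556 in subordinates. Its groups overlapped, since subordinate 1 lay below dominants 2 and 3, and the difference was -1.02 ± 0.66 (limma adjusted p = 0.174). Leaving out subordinate replicate 3 gave -0.52, and leaving out subordinate replicate 1 gave -1.59. The remaining hormone gene, gphb5, the beta subunit of thyrostimulin, stood at 341, 218 and 251 against 232, 166 and 82.1 and also overlapped. Its difference of 0.85 was 0.43 without subordinate replicate 3. In bulk tissue, fewer cells of a type and less RNA per cell cannot be told apart.

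**Figure D2:**
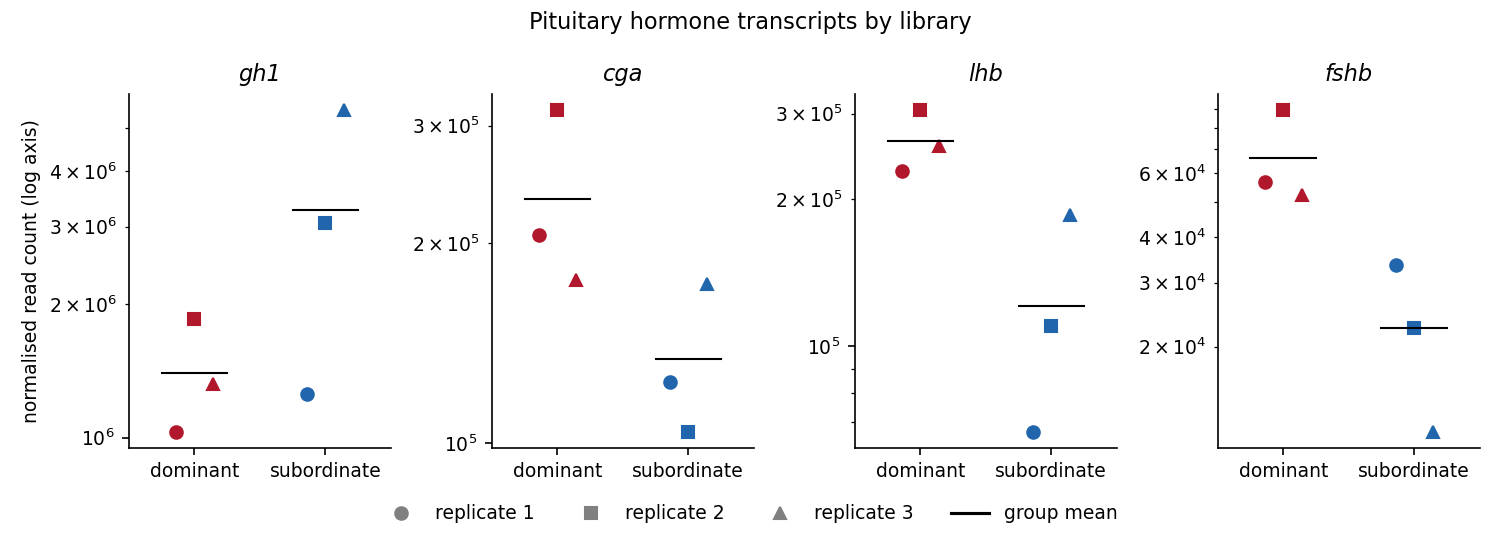
Normalised read counts of gh1, cga, lhb and fshb in each pituitary library, on log axes that differ between panels. Symbols mark the replicate number and bars the group means. The 3 gonadotropin subunits have dominant values above all subordinate values, and gh1 does not separate the groups.

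Ratios of 2 transcripts within a library do not depend on the size factors, and they were added after the values had been seen. The ratio of gh1 to lhb was 4.50, 6.07 and 5.14 in dominants and 18.8, 27.8 and 29.7 in subordinates. The ratio of gh1 to cga was 5.01, 5.85 and 7.53 against 10.1, 29.4 and 31.8. Both ratios separated the groups, and gh1 itself did not. The genes were selected on these same libraries, gh1 as lower and lhb and cga as higher in dominants. A separation of their ratios was thus largely set in advance and adds no support. The ratio of fshb to lhb did not separate them, at 0.247, 0.293 and 0.203 in dominants against 0.501, 0.205 and 0.0628 in subordinates. Subordinate 1 thus had the most fshb per lhb of the 6 libraries and subordinate 3 the least.

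The name pattern of the growth axis matched 5 genes of the table. Binding proteins of insulin-like growth factors, which carry these factors and set how much is free, were all higher in dominants. igfbp5 stood at 233, 587 and 411 in dominants and at 39.3, 37.4 and 61.5 in subordinates. It rose by 3.06 ± 0.38 in dominants (limma adjusted p = 0.0185). Its adjusted p was 0.0803 and 0.145 by limma without dominant replicates 2 and 3 and 0.0645 without subordinate replicate 2. igfbp7 stood at 558, 538 and 482 against 280, 222 and 390, and igfbp4 at 97.9, 172 and 150 against 84.8, 84.8 and 72.7. Neither of these groups overlapped. pappa2, by its symbol a protease of such binding proteins, was not matched and was also higher (1.37 in the authors' log2 fold change). On the lower side were irs2, an adaptor of the insulin and IGF-1 receptors (356, 368 and 381 against 440, 684 and 563, groups apart), and stat3, a transcription factor of cytokine signalling (-0.55, groups overlapping, and -0.29 without subordinate replicate 3).

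The 5 genes of steroid signalling and metabolism in the table were all higher in dominants, with a median difference of 0.79. The 372 higher genes of the table had a median of 0.745. pgr, the nuclear progesterone receptor, stood at 64.2, 178 and 132 in dominants and at 47.9, 52.4 and 47.6 in subordinates (1.20 ± 0.40, groups apart). cyp19a1b, the brain form of aromatase, which turns androgens into oestrogens, stood at 2486, 3171 and 5943 against 1064, 2396 and 2106 (1.04 ± 0.41, groups apart by a small gap). Leaving out dominant replicate 3 or subordinate replicate 1 gave 0.68. The sulfotransferase sult5a1 (0.79) and hsd17b7 (0.60) had groups apart, and hsd3b1 (0.50), of steroid hormone synthesis, did not. hsd17b7 was at 0.33 without subordinate replicate 3, and hsd3b1 at 0.75 and 0.27 without dominant replicates 1 and 2. cyp19a1b was also the marker of radial glia in the table, 1 of 5 looked for, and the part of such cells in its difference was not tested.

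Receptors and regulators of the gland differed in both directions. crhbp, which binds and holds back corticotropin-releasing hormone, stood at 10744, 8396 and 7938 in dominants and at 15287, 12982 and 21494 in subordinates. All dominant libraries lay below all subordinate ones, a difference of -0.86 ± 0.23 (limma adjusted p = 0.0855). Of 6 genes matched as pituitary receptors, which besides crhbp are receptors named gpr, 3 were higher and 3 lower. Of 4 genes matched as transcription factors, foxo6b (1.48), klf13 (0.62) and egr2 (2.53) were higher and tcf25 (-0.33) was lower. egr2, an immediate early gene, rested on dominant 3, at 385 against 11.6 and 55.7 in dominants 1 and 2 and 28.3, 3.74 and 9.32 in subordinates. Without dominant replicate 3 egr2 differed by 1.24 and klf13 by 0.40.

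Of 7 neuropeptide genes 2 were higher in dominants (oxt and pmchl) and 5 lower (pmch and 4 precursors found in secretory granules). oxt, the teleost oxytocin gene (isotocin), whose neurons end in the pituitary, stood at 56.8, 138 and 66.9 in dominants and at 3.69, 26.2 and 13.1 in subordinates (2.75 ± 0.76, groups apart). pmchl, a melanin-concentrating hormone gene by its symbol, stood at 3244, 830 and 924 against 90.9, 680 and 370 (2.25 ± 0.82, groups apart), and differed by 1.43 without subordinate replicate 1. A second gene of that kind, pmch, stood at 16.8, 11.1 and 14.8 against 165, 23.7 and 3.73. Subordinate 1 alone set its direction, since the difference was -0.83 with that library and 0.48 without it. Without subordinate replicate 3 it was -2.09. Of the 13 markers of hypothalamic or brain tissue looked for, 2 are in the table, oxt and the vesicular glutamate transporter slc17a6. Their summed level was 479 to 646 in dominants and 298 to 356 in subordinates. Both were selected on this comparison and were higher in dominants, so the direction of the sum was set in advance. Whether the amount of brain tissue or nerve fibre in the dissected glands plays a part was not tested.

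Genes of excitable cells did not move as a block. asic1c, an acid-sensing sodium channel subunit, stood at 124, 157 and 104 in dominants against 19.7, 36.2 and 46.6 in subordinates (1.94 ± 0.39). Its family member asic4 went the other way, at 350, 155 and 306 against 660, 769 and 568 (-1.37 ± 0.32). Both had groups apart, and the ratio of asic1c to asic4 was 0.354, 1.01 and 0.341 in dominants and 0.0298, 0.0471 and 0.0821 in subordinates. With both genes apart in opposite directions, their ratio could only be apart too. Of 8 ion channel genes 5 were higher, among them trpc6 (1.22), ryr3 (0.68) and kcnj15 (0.57), and the potassium channels kcnc2 (-0.51) and kcnc3b (-0.69) were lower. Of 8 transmitter receptor genes 6 were higher, among them the GABA receptor subunits gabbr1 (1.37) and gabrd (0.77). Groups were apart in only 2 of the 8 (25%), both higher, where 66% of all 714 genes had them apart. The genes oprm1 (-1.09) and adra2a (-1.03) were lower with overlapping groups. Without subordinate replicate 3 these were -0.30 and -0.60, and kcnc3b was -0.30. Without subordinate replicate 1 oprm1 and adra2a were -1.69 and -1.62, and without dominant replicate 1 they were -0.70 and -0.66.

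Some genes best known from photoreceptors and the pineal were far higher in dominants. pde6hb, by its symbol a form of the small inhibitory subunit of the cone phosphodiesterase, stood at 4119, 17235 and 5291 in dominants and at 1259, 3500 and 123 in subordinates (3.14 ± 1.20). The difference was 1.78 without subordinate replicate 3. tph1, tryptophan hydroxylase 1, the first step of serotonin and melatonin synthesis, stood at 672, 1802 and 892 against 89.7, 54.9 and 401 (3.02 ± 0.74). Both had groups apart, and dominant 2 was highest in each. They are the 2 of 7 photoreceptor and pineal markers in the table, summed to 4792 to 19036 in dominants and 524 to 3555 in subordinates. As both were selected on this comparison, the direction of that sum was set in advance too. The list of 6 retina and pineal genes also caught bcor and asmtl, which have other roles and were lower.

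cpt1b, a carnitine palmitoyltransferase that passes fatty acids to mitochondria, stood at 416, 1729 and 1011 in dominants and at 109, 172 and 98.8 in subordinates (2.86 ± 0.51, limma adjusted p = 0.076). A second form, cpt1a2b, was lower at 438, 525 and 427 against 472, 877 and 699 (-0.52, and -0.32 without subordinate replicate 2). Its groups overlapped. lnpk, whose product shapes junctions of the endoplasmic reticulum (ER), stood at 1023, 613 and 821 against 177, 129 and 190. It rose by 2.29 ± 0.25 in dominants (limma adjusted p = 0.00963). cdc42ep1b, an effector of the small GTPase Cdc42, rose by 1.22 ± 0.18, from 286, 352 and 268 in subordinates to 585, 788 and 752 in dominants (limma adjusted p = 0.0389). That call was lost with the replicate number as a block (adjusted p = 0.0700, limma) and in 5 of the 6 left-out fits (0.0528 to 0.175), while lnpk lost its call without dominant replicate 3 alone (0.0985).

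Genes that matched the secretory list had a median of -0.40, against 0.37 over all 714 genes and -0.56 over the 342 lower ones. Of the 37 in the list, 28 were lower in dominants and 9 higher, with differences from -2.66 to 1.16. The higher ones include syt14b and dnm3, by their symbols a synaptotagmin and a dynamin, which belong to vesicle traffic. They also include 3 membrane proteins matched by their tmem names (tmem178a, tmem164 and tmem163a). The match by name alone does not show whether these belong to the pathway, and the same holds for tmem196 among the lower ones. Lists made after these values had been seen show the parts of the pathway. All 16 genes of protein entry into the ER were lower (median -0.44), with srp54, srp68, srp19 and srp9 of the signal recognition particle, its receptor subunit srprb, the signal peptidase subunits spcs2, spcs3 and sec11a, and the translocon partner tram1. All 17 genes of transport between ER and Golgi were lower too (median -0.42), with the coat proteins copb1, copb2, copg2 and sec24d and the cargo receptors tmed2, tmed3, tmed10 and lman1.

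These 33 genes differed by 0.27 to 0.61 on the log2 scale, and 25 of them had groups apart, where 66% of all 714 genes did. Subordinate 3 was the highest library for 25 of them, as it was for 207 of all 342 lower genes. Subordinate 1 was the lowest subordinate library for 28, which was not counted over all lower genes. srp54 stood at 1698, 1834 and 1804 in dominants and at 1850, 2549 and 3141 in subordinates, with subordinate 1 just above the dominants. Without subordinate replicate 3 the differences of srp54, srp68, srp19, spcs2 and tmed3 were -0.29, -0.28, -0.37, -0.29 and -0.21. tmed2 stood at 1185, 1575 and 1460 against 1813, 1890 and 2535. prdx4, an ER peroxidase that takes part in the oxidative folding of secreted proteins, had the largest difference of the 11 genes of ER folding and glycosylation, at 891, 952 and 914 against 1397, 1712 and 2908 (-1.05 ± 0.27). Of those 11 genes 9 were lower.

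A list of 5 proteins of the secretory granule was also made after the values had been seen. The granins scg2, scg2b and scg3, the prohormone-trimming enzyme cpe and the nesfatin precursor nucb2a were all 5 lower in dominants (median -0.35). scg2b stood at 8674, 11775 and 12579 in dominants and at 14371, 18614 and 20436 in subordinates (-0.70 ± 0.21, groups apart).

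Protein synthesis genes were lower in dominants too. All 12 genes of the translation list were lower in dominants (median -0.48), among them the tRNA synthetases qars, tars, vars and wars. Of 13 genes of ribosome biogenesis, a list made after the values had been seen, 12 were lower (median -0.51), among them imp4 (-0.68), tbl3 (-0.69) and pak1ip1 (-0.59), and nsa2 (0.37, and 0.23 without dominant replicate 1) was higher. Of 11 genes matched by name as mitochondrial 10 were lower (median -0.39). Among them were the ATP synthase subunit atp5mc1 and the importers timm8b (-0.29 without subordinate replicate 3) and timm13. In this list cox20 (0.83) alone was higher. Mitochondrial genes by their symbols that the match missed went in both directions. In the authors' log2 fold change otc (2.27) and ak3 (0.60) were higher, and pitrm1 (-0.51) and lonp1 (-0.35) lower. cox20 lies next to lhb in the reference, with no gene between them. The strand setting of the counting is not given in the sources used here, so reads of such neighbours may not be fully separated. Whether this plays a part in the values of cox20 was not tested. Of 21 transporters 15 were lower.

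Set beside growth hormone, the ER entry and ribosome biogenesis lists share its highest libraries, as most lower genes do. Of the 342 lower genes, 207 were highest in subordinate 3 and 92 in subordinate 2. Relative to the mean of the 6 libraries, gh1 was highest in subordinates 3 and 2. The mean of the ER entry genes was -0.28, -0.12 and -0.26 in dominants 1, 2 and 3 and -0.05, 0.30 and 0.41 in subordinates 1, 2 and 3. That of the ribosome biogenesis genes was -0.28, -0.05 and -0.36 against -0.03, 0.41 and 0.31. In both lists subordinates 2 and 3 stood apart from the rest and subordinate 1 lay near the middle. The translation and mitochondrial lists were also highest in subordinates 2 and 3, at 0.27 and 0.41 and at 0.21 and 0.27. The part of gh1, which takes up to 84.2% of the reads of the table, in the levels of other genes was not tested.

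**Figure D3:**
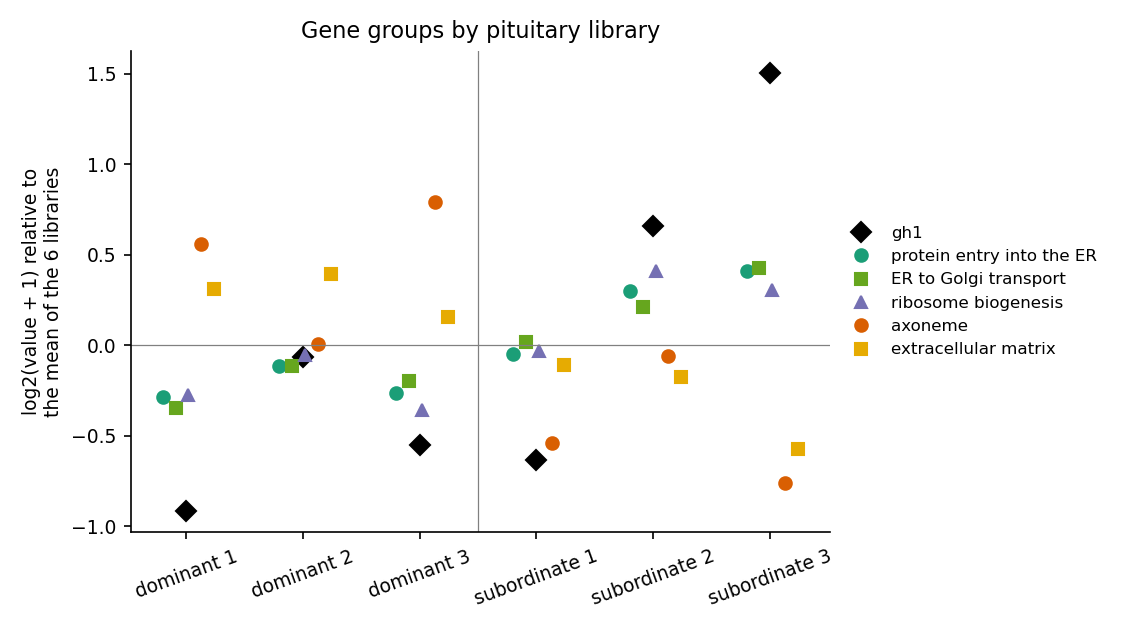
Mean log2(value + 1) of the genes of 5 lists in each pituitary library, relative to the mean of the 6 libraries, with gh1 as black diamonds. The secretory and ribosome lists are highest in subordinates 2 and 3, and the axoneme and extracellular matrix lists are lowest in subordinate 3.

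On the higher side stood genes of cell contact, matrix and cilia. Of 15 genes of axon guidance and adhesion 12 were higher in dominants (median 0.68). sema7a, a membrane-bound semaphorin, stood at 339, 447 and 462 in dominants and at 246, 198 and 298 in subordinates, and the protocadherin pcdh10b at 573, 527 and 374 against 263, 288 and 301. In both the groups were apart, while the 3 lower members sema3h, ptprm and itgb8 overlapped, and sema3h (-0.84) was at -0.21 without subordinate replicate 3 and -1.59 without subordinate replicate 1. Of 13 matrix genes 11 were higher (median 0.75), and 4 had groups apart (serpinf1, col28a1, col4a6 and frem3), where 66% of all 714 genes did. The higher matrix genes with overlap include vcanb, a versican (1.12), and col9a2 (0.97). Without subordinate replicate 3 col9a2, serpinf1 and frem3 were at 0.55, 0.58 and 0.34.

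Of 11 genes matched as ciliary, 10 were higher (median 0.71). The 1 lower gene, ttc27, and spag9a carry a name of the pattern without a ciliary role known to be theirs. All 7 genes of the axoneme, the microtubule core of motile cilia, were higher (a list made after the values had been seen, median 0.71). rsph4a of the radial spoke stood at 91.5, 92.5 and 126 in dominants and at 39.3, 73.6 and 45.7 in subordinates, with groups apart. rsph9 of the same spoke stood at 156, 27.5 and 178 against 18.4, 89.8 and 25.2, and tekt3, a tektin, at 290, 131 and 298 against 132, 86.1 and 33.6. In rsph9 and tekt3 dominant 2 lay among the subordinates. rsph9 differed by 1.37, by 2.22 without dominant replicate 2 and by 0.90 without dominant replicate 3, and tekt3 by 1.61 and by 1.07 without subordinate replicate 3.

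Most genes matched by name as blood or immune genes were higher in dominants. Of 6 matched as immune 5 were higher, among them csf3r, the receptor of a granulocyte growth factor (0.97), and cd40 (0.52). The match also caught cd151 and the 1 lower gene, trim71, which have other roles. Immune genes by their symbols that it missed went in both directions. Higher in the authors' log2 fold change were epx (2.55), lgals3bp.3 (1.73), prf1.5 (0.85) and ackr4 (0.77). Lower were gvin1l2 (-1.92) and traf3ip2l. The latter stood at 28.4, 39.3 and 35.4 in dominants and at 23.4, 151 and 1157 in subordinates. All 3 erythrocyte genes were higher, namely alas2, the first enzyme of haem synthesis in red cells (357, 140 and 192 against 132, 162 and 78.3), the anion exchanger slc4a1a (290, 141 and 105 against 76.2, 115 and 36.4) and ank1a. The groups of alas2 and slc4a1a overlapped, and 1 of the 3 genes had groups apart, where 66% of all 714 genes did. The 2 of 5 fixed red cell markers in the table, alas2 and slc4a1a, summed to 281 to 647 in dominants and 115 to 277 in subordinates. Dominant 1 was highest and subordinate 3 lowest. Both markers were selected on this comparison, so the direction of their sum was set in advance. The differences of alas2 (0.84) and slc4a1a (1.24) were 0.46 and 0.82 without dominant replicate 1 and 0.54 and 0.79 without subordinate replicate 3. The globins are not in the table, and the part of blood in the difference of other genes was not tested.

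**Figure D4:**
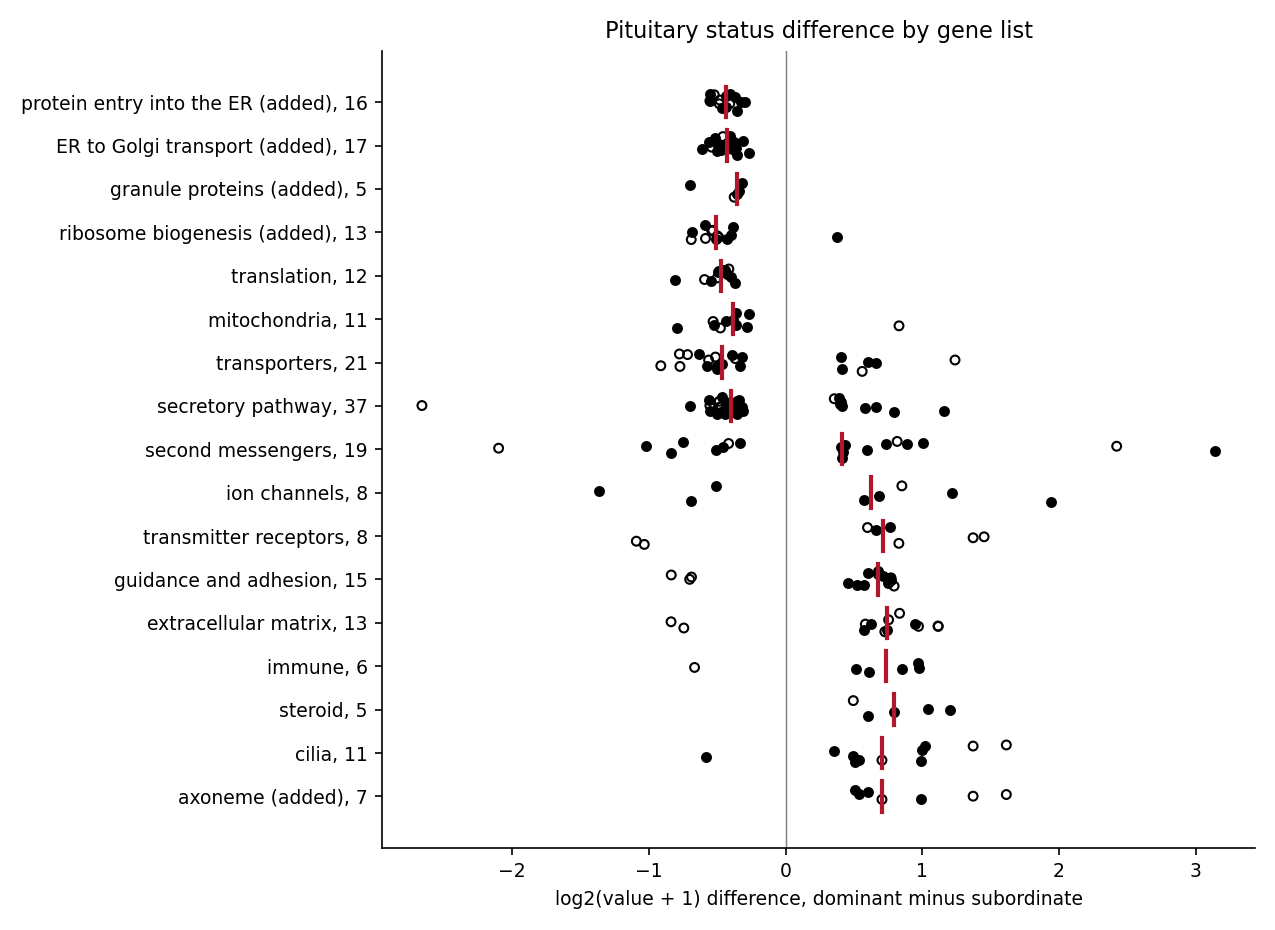
Log2(value + 1) difference, dominant minus subordinate, of every member of 17 gene lists, with the number of genes after each name. Filled points have groups that do not overlap, red bars are list medians, and "added" marks lists made after the values had been seen. The medians of the secretory, translation and mitochondrial lists lie below 0 and those of the guidance, matrix, steroid and cilia lists above it, and the secretory list runs from -2.66 to 1.16.

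Several of the lower genes rested on 2 subordinate libraries. tmem196, a membrane protein, stood at 97.9, 265 and 390 in dominants and at 68.8, 4195 and 8826 in subordinates. rasl11b, a Ras-like GTPase, stood at 147, 152 and 259 against 136, 1359 and 2476. Their differences of -2.66 and -2.10 were -4.81 and -3.34 without subordinate replicate 1 and -1.32 and -1.26 without subordinate replicate 3. In 12 genes of the table, found after the values had been seen, subordinates 2 and 3 were both at least 3 times as high as any of the other 4 libraries. Others of the 12 are rtn4rl2b, a Nogo receptor relative (at most 233 in the other 4 libraries against 1545 and 1249 in subordinates 2 and 3), qpct, a glutaminyl cyclase that caps the ends of peptide hormones (at most 121 against 418 and 1904), and abhd15a. Of the 146 lower genes whose groups overlapped, subordinate 1 was the single subordinate library on the dominant side in 107, subordinate 2 in 13 and subordinate 3 in 14. Without subordinate 1 the groups did not overlap for 619 genes, 316 higher and 303 lower. Leaving out any library can only keep or raise such a count, and it was not made for the other libraries. The rise from 471 therefore does not single out subordinate 1.

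Among lower genes with groups apart, pnp5a, by its symbol a purine nucleoside phosphorylase, had the largest difference of the named genes (45.2, 89.8 and 74.8 in dominants against 155, 353 and 374 in subordinates, -2.01 ± 0.42). s100z, a calcium-binding protein of the S100 family, stood at 1456, 761 and 999 against 1544, 2338 and 2613 (-1.03 ± 0.30). It lies next to crhbp in the reference, and both were lower. Of 23 pairs of the table's genes with no gene between them in the reference, 19 shared a direction. LOC106098029, next to gh1, was also lower (-1.37, and -0.81 without dominant replicate 1). The limit given for reads of cox20 and lhb holds for these neighbours as well, and its part was not tested.

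The largest differences of all belonged to genes without a name. Of the 173 unnamed genes, 149 are protein-coding and 20 are lncRNA genes in the reference, and 15 of the 29 genes higher by over 2 are unnamed. LOC100701774 stood at 166, 163 and 165 in dominants and at 4.92, 3.74 and 4.66 in subordinates, and LOC100703972 at 245, 235 and 250 against 24.6, 13.7 and 14.0. Both rose in dominants (4.94 ± 0.44 and 3.78 ± 0.32, limma adjusted p = 0.00423 for each), and both lost the call without dominant replicate 3 alone of the left-out fits (0.0968). LOC109202200 stood at 20611, 18258 and 1574 against 6.15, 2034 and 269, so its groups overlapped in spite of a difference of 5.74 (3.50 without subordinate replicate 1). LOC100689985 stood at 45.2, 7529 and 9178 against 20.9, 68.6 and 39.2, and dominant 1 lay with the subordinates.

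The brain values of the same genes did not enter the selection, but they are not independent of it. Over the members, deviations from the group mean in pituitary and brain correlated at r = 0.19 to 0.58 for the 6 pairs of libraries with the same rank and number, and at r = -0.43 to 0.01 for the 12 pairs of the same rank and another number. The labels do not say that brain and pituitary of 1 number came from 1 male. Genes selected for a difference between these pituitaries can thus differ alike between these brains whether or not rank plays a part, and the counts below are descriptions that cannot tell the 2 apart. Of 710 members in the brain table, 685 reached a mean of 10 in the brain and entered a fit of all 21743 genes that did. An unadjusted p under 0.05 was found for 78 of them (11.4%, against 5.17% of all brain genes), and the groups were apart in 103 (15.04%, against 10.8%). Over all 685 members 422 (61.6%) had the same direction in both tissues, and of the 78, 62 had the direction of the pituitary and 16 the opposite one. By limma's adjusted p, 3 members passed in the brain (0.0276% of all brain genes passed), namely lnpk, LOC100703972 and LOC100703705. That count was 1 with the replicate number as a block, and 1 without dominant replicate 2 or 3 or subordinate replicate 3.

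LOC100703705 stood at 299, 295 and 276 in dominant and at 40.1, 22.9 and 29.2 in subordinate brains, and at 125, 155 and 155 against 19.7, 6.24 and 9.32 in pituitaries. It rose in dominants in both tissues (3.23 and 3.65, limma adjusted p = 0.0118 and 0.0222). The pituitary call was lost with the replicate number as a block (0.0700) and in 4 of the 6 left-out fits (0.0503 to 0.154). LOC100703705, LOC100703972 and LOC102082670 follow each other in the reference with 1 gene between neighbours, and all 3 were higher in dominants with groups apart in both tissues. LOC100689985 kept its library pattern in the brain, at 82.9, 15267 and 13355 in dominants against 73.8, 85.2 and 102 in subordinates. LOC102079842 did so too, at 160, 13.8 and 68.9 against 7.37, 0 and 0.932 in pituitaries and at 171, 11.3 and 109 against 11.8, 2.08 and 5.03 in brains.

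All 4 hormone genes tested in the brain were lower in dominants there, so that gh1 kept its pituitary direction and the gonadotropin subunits did not. gh1 stood at 2810, 3109 and 3866 in dominant and at 3763, 3825 and 8557 in subordinate brains (-0.62), and subordinate 3 was highest in both tissues. fshb stood at 111, 132 and 102 in dominant and at 162, 164 and 343 in subordinate brains (-0.87), the reverse of its pituitary order, and lhb and cga were reversed in the same way (-0.79 and -0.95). By limma only 1 of the 4 hormone genes had an unadjusted p under 0.05 in the brain. Whether pituitary tissue in the brain samples plays a part in these values was not tested. oxt kept its direction, at 7125, 9847 and 9840 in dominant against 5367, 5950 and 2862 in subordinate brains. igfbp5 stood at 507, 456 and 516 against 472, 493 and 512 in the brain, a difference of 0.00. A test of the difference between tissues was added after the data had been seen, and its calls turned on its form. It was first run unpaired with the degrees of freedom of both tissues summed, which called 25 of 685 members, among them igfbp5, fshb, asic1c and asic4. With libraries of the same rank and number paired, the form the correlations above select, limma called 0 (lowest adjusted p = 0.0511, and 205 members at an unadjusted p under 0.05). The unpaired form with the smaller degrees of freedom also called 0 (181 at an unadjusted p under 0.05). None of these genes is therefore called different between tissues.

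**Figure D5:**
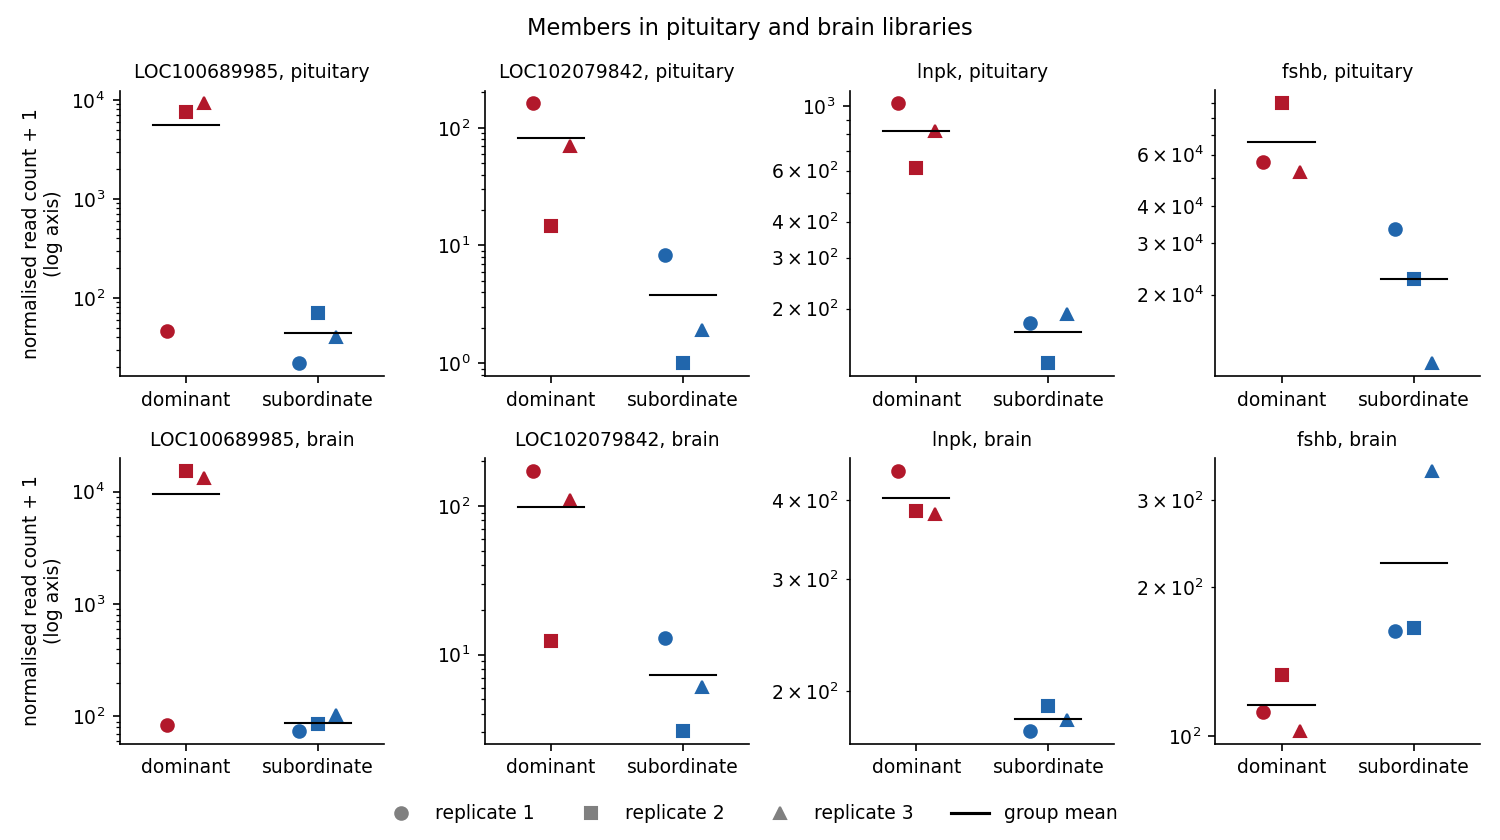
Normalised read count + 1 of 4 genes in pituitary (top) and brain (bottom) libraries, on log axes that differ between panels, with symbols for the replicate number and bars for group means. LOC100689985 and LOC102079842 keep the same high and low dominant libraries in both tissues, lnpk is higher in dominants in both, and fshb is higher in dominant pituitaries and lower in dominant brains.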

How the data were processed

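RNA of pituitaries and brains of mature male tilapia was sequenced, and samples were grouped by the tissue and rank in their labels, 3 per group. Per the labels' protocols, a miRNeasy kit gave the RNA and a TruSeq RNA v2 kit the libraries. The tools named in the submitters' processing notes are STAR 2.201, HTSeq, FastQC 0.11.4, Trim Galore, DESeq and DESeq2. Genome build, annotation, strand setting and the handling of reads that match several loci were not given in the sources used, so near-identical or overlapping genes may share reads.

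The deposited signal values are normalised read counts per the file headers. That they are gene counts over 1 size factor is inferred from the values, since 100% of those under 2000 were whole multiples of 1 step within 0.01 reads. P-values and log2 fold changes deposited by the authors compare both ranks, and the log2 fold changes had the sign of the differences computed here for 714 of 714 genes. The counting error behind a value follows from its reads, and the depth of the pituitary libraries is unknown. There were 0 value columns that were not used.

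Differences were tested with limma 3.58.1 (R 4.3.3), with the trended eBayes option, on log2(value + 1), for genes with a mean of at least 10, and with Benjamini-Hochberg adjustment over the table. The prior for the spread thus comes from selected genes. An exact permutation test of 3 against 3 cannot give a p under 0.1. The fit was tested on simulated counts with the same spread for every gene and most genes unchanged. That is not the setting of this selected table, so it says nothing about the calls made here. Both tissues were normalised separately and levels are not compared between them.

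LOC identifiers were named from a RefSeq table of assembly O_niloticus_UMD_NMBU (368 of 368 matched, 195 with a symbol), used only for names, gene types and neighbours. Lists (30, of which 29 had members) are name patterns, and 7 more were made after the values were seen. Members and lists were chosen with earlier results of these data known. Named genes are those past the test, the 15 largest differences per direction with groups apart and a mean of at least 50, all hormone, receptor, transcription factor, growth axis and steroid genes, up to 5 per direction of other lists with a mean of at least 20, and the 10 highest means. Further genes named as examples of a list, unnamed genes, genes high in 2 subordinates, neighbours and within-library ratios were chosen after their values were seen. Alternatives were other pseudocounts (0.5 and 5), filters (a minimum mean of 50, and no filter), TMM rescaling, the replicate number as a block, robust eBayes, other adjustments and each library left out. Within the pituitary, deviations of same-numbered dominant and subordinate libraries correlated at 0.148, 0.078 and -0.053, so they were not taken as pairs. Figures were drawn with matplotlib 3.10.9.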

Additional observations from a re-analysis of the deposited data

How the results depend on the processing

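The 372 to 342 split of directions was 372 to 377 higher in all fits over the whole table, and 355 to 334 with a mean of at least 50. The count of 6 limma calls was the same with both pseudocounts, both filters, TMM and robust eBayes. With the replicate number as a block it was also 6 (5 higher, 1 lower), 4 of them among the original 6 (cdc42ep1b and LOC100703705 were lost, cpt1b and pnp5a gained). It was 0 with adjustment over the number of brain genes (404 at an unadjusted p under 0.05), 607 at an adjusted p under 0.1, 714 with the authors' deposited p-values, and 0 to 255 with 1 library left out. The 0 came without dominant replicate 3 (169 at an unadjusted p under 0.05) and the 255 without subordinate replicate 1. List medians kept their sign in all fits run, and with 1 library left out they ran from 0.53 to 0.67 for guidance and adhesion (lowest without subordinate replicate 3), 0.52 to 0.93 for cilia, 0.58 to 0.93 for matrix, -0.48 to -0.30 for secretory, -0.52 to -0.39 for translation, -0.48 to -0.33 for mitochondria, -0.59 to -0.34 for ER entry, -0.58 to -0.32 for ER to Golgi transport and -0.67 to -0.40 for ribosome biogenesis genes. The genes of the split and of the lists were selected on these same libraries, and some lists were made after the values had been seen. A kept direction was thus largely set in advance. Members called in the brain numbered 1 with the replicate block and 1 to 4 with 1 library left out, against 3. Of 3074 values of 220 genes under these settings 2 changed sign, pmch without subordinate replicate 1 (0.48, range with 1 library left out -2.09 to 0.48) and ntrk2b without subordinate replicate 3 (0.68, range -1.61 to 0.68). The cause was not tested. Count tests with edgeR and DESeq2 were planned and not run, because the check of the unit that they required needs more low values than 714 genes have. The table holds only genes that the authors selected by p and no unselected genes to compare them with, which limits every count here.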
